A study of Mus musculus with 4 samples.

Results

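The transcription factors described here mark the proximal part of the limb or take part in forming the shoulder and pelvic girdles: Meis1, Meis2 and Meis3, Irx3 and Irx5, Emx2, Pax1, Tbx15 and Tbx18. These 9 genes were chosen by name, with earlier results of these data known. Each was found as 1 of the 16492 probe sets tested, by the Entrez gene in the probe set's name. Limb RNA was hybridized to 4 Affymetrix mouse arrays, 2 of wildtype and 2 of SHOX transgenic embryos at E12.5, all labelled as C57BL/6, with fore- and hindlimbs of 2 to 4 littermates pooled per array. The transgene was a human SHOXa cDNA driven by a collagen type II (Col2a1) promoter and enhancer, which is active in cartilage, and it was put into eggs of a C57BL/6 x DBA/2 cross before the lines were mated with C57BL/6 mice. Which of the transgenic lines gave the embryos on the arrays is not given in the sources used here. The study made 2 hybridization experiments, and a suffix that 1 wildtype and 1 transgenic array title share was taken to mark each of them. This reading is an inference, since the labels do not say what the suffix means, and the numbers 1 and 2 given to the pairs here imply no order. The values are log2 expression values quantile normalized by the study's authors. No probe set is named for the human transgene, so its level could not be checked on the arrays. The study reports that its expression was established by qRT-PCR before hybridization.

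The arrays grouped by experiment rather than by genotype, with a Pearson correlation across probe sets of at least 0.997 within an experiment and at most 0.988 between them. Of 10 genes that define limb mesenchyme, all were measured and 7 lay above the median probe set on every array, as did 7 of the 9 factors; Meis3 and Pax1 did not. Xist, the RNA by which female cells silence an X chromosome, had log2 values of 9.62 and 9.36 on the wildtype arrays and of 6.58 and 6.42 on the transgenic arrays. The pools therefore differ in Xist along the genotypes, and its part in the results below was not tested. The tissue was whole limb, where fewer cells of a type and less RNA per cell cannot be told apart.

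A limb bud is laid out along its proximodistal axis by opposing signals, with retinoic acid from the flank at its base and fibroblast growth factors from the ridge at its tip. MEIS proteins are homeodomain factors that bind DNA with PBX partners. They are made in the early bud and later only in its proximal part, and retinoic acid induces them. In the mouse, the homeodomain factors IRX3 and IRX5 are needed together for the proximal and anterior skeleton of the hindlimb. EMX2, the paired-box factor PAX1 and the T-box factors TBX15 and TBX18 act in the formation of the scapula, and loss of Emx2 in the mouse leaves the girdles severely reduced.

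SHOX binds DNA at sites with the letters TAAT or, on the other strand, ATTA. The 250 bases before the RefSeq gene start (build GRCm38.p6) were read for these factors to show what their proximal promoters hold, and 7 of 9 had an entry, all but Irx5 and Tbx15. The windows of 3 factors are printed, for Meis2, Meis1 and Emx2, the factors with their lowest value of the 4 arrays on the wildtype array of experiment 2. They lie at chr2:116064620-116064869 on the minus strand, chr11:19018970-19019219 on the minus strand and chr19:59458440-59458689 on the plus strand, directly upstream of the start used, and RefSeq lists further starts for Meis1 and Meis2. Each is written 5′ to 3′ on the strand of the gene, and capitals mark TAAT or ATTA.
Meis2: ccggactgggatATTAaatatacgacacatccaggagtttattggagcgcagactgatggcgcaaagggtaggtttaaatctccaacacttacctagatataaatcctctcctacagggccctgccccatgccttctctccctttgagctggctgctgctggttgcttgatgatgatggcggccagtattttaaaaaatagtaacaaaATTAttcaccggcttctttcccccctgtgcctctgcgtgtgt
Meis1: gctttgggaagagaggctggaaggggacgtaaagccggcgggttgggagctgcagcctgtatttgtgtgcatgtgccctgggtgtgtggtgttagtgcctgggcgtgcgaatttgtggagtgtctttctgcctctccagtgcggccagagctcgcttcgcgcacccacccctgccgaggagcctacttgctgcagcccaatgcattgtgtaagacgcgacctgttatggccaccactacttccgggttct
Emx2: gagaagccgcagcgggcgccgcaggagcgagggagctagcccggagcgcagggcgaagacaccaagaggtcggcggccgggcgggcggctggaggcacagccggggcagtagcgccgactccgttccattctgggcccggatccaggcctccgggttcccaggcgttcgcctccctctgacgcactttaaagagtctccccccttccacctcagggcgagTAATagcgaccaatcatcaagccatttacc
The Meis2 window holds 2 such letter groups, beginning 238 and 42 bases before the start, and the Emx2 window holds 1, beginning 30 bases before it. Neither group of letters is in the Meis1 window. Tbx18 has 1, at 24 bases before its start, and Meis3, Irx3 and Pax1 have none. With 3 of 7 windows holding TAAT or ATTA, the factors compare with 54.9% of all 32851 windows of the same length. The letters TGACAG or CTGTCA, the core that MEIS proteins bind, are in none of the 7 windows and in 15.9% of all windows. These matches describe letters and do not show sites that are bound.

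The first comparison asked whether the transgene altered the level of these factors. None of the 9 passed a log2 fold change beyond 0.2 with an unadjusted p under 0.05 in limma, the thresholds of the study, with genotype as the only term, where 0.188% of all probe sets passed. The study required a significant change in both experiments, while here its thresholds were applied to a joint fit of the arrays. The study's p-values also came from mixed models fitted to probe values, and those here from limma on 1 value per gene. A gene that passes here therefore need not meet the study's criterion, and a gene that does not pass here may have met it. None passed with the experiment as a block, where 1.55% of all probe sets passed, 1.23% as higher and 0.321% as lower in transgenic limbs. At an adjusted p under 0.05 none passed either, beside 0% and 0.273% of all probe sets without and with the block. Without the block none of the 9 had an unadjusted p under 0.05 in limma, while with it Meis2, Emx2 and Tbx15 did, or 3 of 9 beside 7.92% of all probe sets. Their log2 fold changes lay between 0.1 and 0.2 in size, so the same 3 pass with the block at a fold threshold of 0.1, as do 7.92% of all probe sets. Both transgenic arrays lay above both wildtype arrays for Emx2, 1 of 9 factors beside 5.67% of all probe sets, and below them for Tbx15 and Tbx18, 2 of 9 beside 12.7%. The genotypes thus did not overlap for 3 of 9 factors, beside 18.4% of all probe sets. The median log2 difference between the genotypes was close to 0 over all probe sets, at -0.01.

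**Figure D1:**
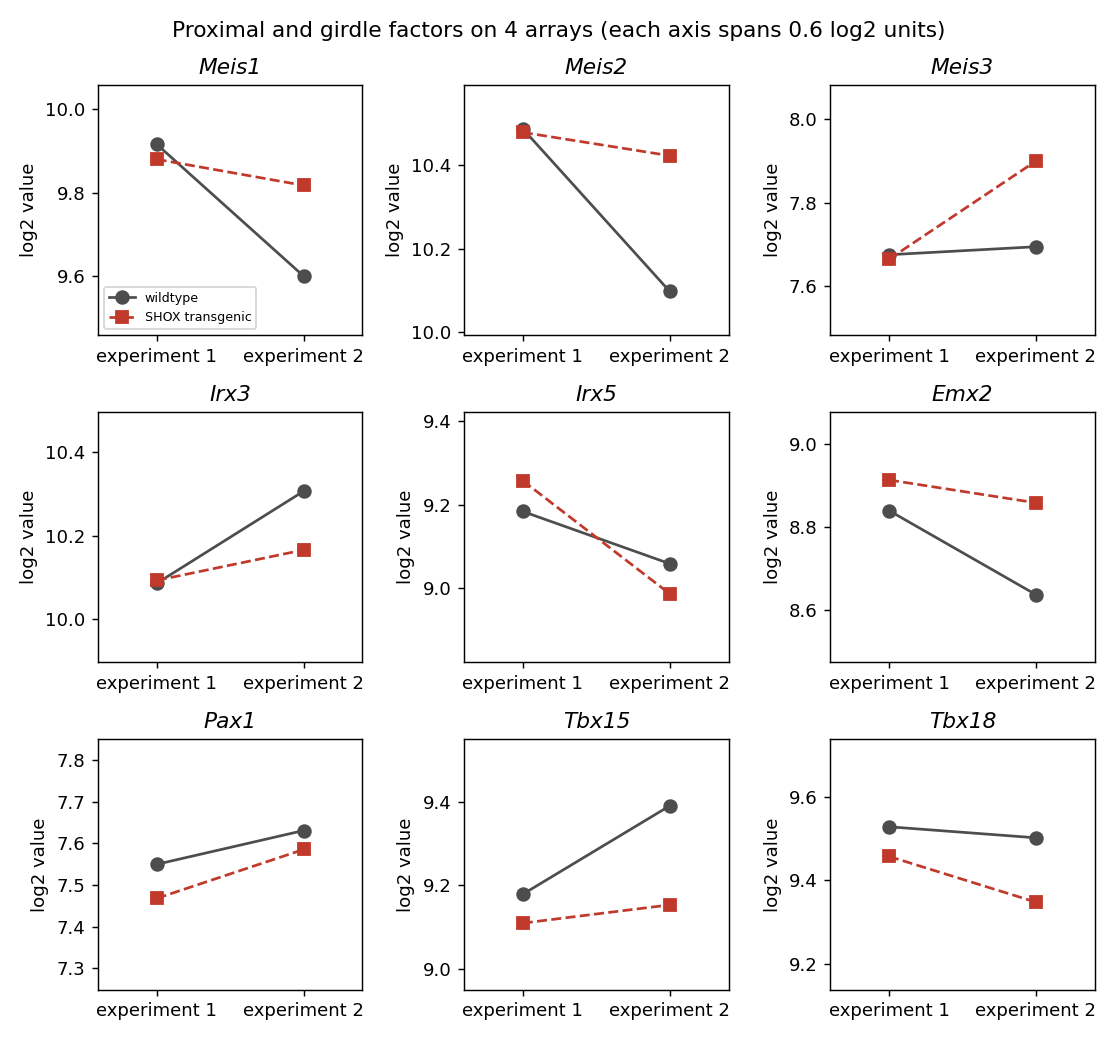
Log2 values of the 9 factors (vertical axis, spanning 0.6 log2 units in each panel) on the 4 arrays, by experiment (horizontal axis), with circles and solid lines for wildtype and squares and dashed lines for SHOX transgenic. Each point is 1 array; in experiment 1 the genotypes differ by at most 0.082 in size for every factor, and in experiment 2 Meis2 differs by 0.33.

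Among the MEIS genes, Meis2 varied the most of the 9 factors over the arrays. In experiment 1 it read 10.49 on the wildtype and 10.48 on the transgenic array (log2), and in experiment 2 it read 10.10 and 10.42. The wildtype array of experiment 2 was thus lower than the other 3, which lay close together. The transgenic mean was 10.45 ± 0.04 and the wildtype mean 10.29 ± 0.28 (SD, n = 2 each). They differed by a log2 fold change of 0.16, for which limma without the block gave 1 as the adjusted p. In the blocked model the 95% interval, whose error is largely pooled over genes, was 0.01 to 0.31 and the adjusted p from limma was 0.588. Without wildtype replicate 2, the array of experiment 2, the log2 fold change was -0.04. Fits with 1 array left out, here and below, have no block, so part of the difference between experiments enters their fold changes.

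Meis1, the founding gene of the family, ordered the 4 arrays as Meis2 did, over a smaller range. Wildtype limbs gave log2 values of 9.92 and 9.60 in experiments 1 and 2, and transgenic limbs 9.88 and 9.82. Again the wildtype array of experiment 2 was lowest, and the genotypes overlapped. The log2 fold change was 0.09, with a 95% interval of -0.05 to 0.23 from limma with the block, and it was -0.07 without wildtype replicate 2. Meis3, the other member of the family, had another pattern. Its log2 values were 7.68, 7.67 and 7.69 on the first wildtype, the first transgenic and the second wildtype array and 7.90 on the transgenic array of experiment 2, which stood alone above the others. Its log2 fold change of 0.10 (95% interval -0.04 to 0.23 from limma with the block) became -0.02 without SHOX transgenic replicate 2.

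The Iroquois genes Irx3 and Irx5 lie on the same chromosome in one cluster and have overlapping roles in the early hindlimb. The log2 value of Irx3 was 10.09 in both genotypes of experiment 1, and in experiment 2 it was 10.31 for wildtype and 10.17 for transgenic. Its highest value was thus that of the wildtype array on which Meis1 and Meis2 were lowest. The log2 fold change was -0.07 (95% interval -0.19 to 0.06 from limma with the block), and 0.04 without wildtype replicate 2. For Irx5 the wildtype arrays read 9.18 and 9.06 in experiments 1 and 2 (log2), and the transgenic arrays 9.26 and 8.99. Both arrays of experiment 2 were below both of experiment 1. The genotype means were the same to the second decimal, 9.12 ± 0.19 for transgenic and 9.12 ± 0.09 for wildtype (SD, n = 2 each), and the 95% interval from limma with the block ran from -0.13 to 0.13. The differences of Irx5 had opposite signs in the 2 experiments, and with 1 array left out at a time they ran from -0.13 to 0.14.

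Of the girdle factors, Emx2 read 8.84 and 8.64 on the wildtype arrays of experiments 1 and 2 (log2), and 8.91 and 8.86 on the transgenic arrays. Both transgenic arrays were above both wildtype arrays, and the wildtype array of experiment 2 was lowest. The log2 fold change was 0.15 (95% interval 0.02 to 0.27, adjusted p = 0.526 from limma with the block; adjusted p = 1 without it), and 0.05 without wildtype replicate 2. Pax1, which acts in the sclerotome and in the scapula, had log2 values of 7.55 and 7.63 on the wildtype and of 7.47 and 7.59 on the transgenic arrays. The genotypes overlapped, with a log2 fold change of -0.06 (95% interval -0.19 to 0.06 from limma with the block). It was -0.0049 without SHOX transgenic replicate 1, -0.02 without wildtype replicate 2, -0.10 without wildtype replicate 1 and -0.12 without SHOX transgenic replicate 2.

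The T-box genes Tbx15 and Tbx18, close relatives with joint roles in the scapula, were both lower on the transgenic arrays without passing the test. Tbx15 read 9.18 and 9.39 on the wildtype arrays of experiments 1 and 2 (log2), and 9.11 and 9.15 on the transgenic arrays. It was highest on the wildtype array of experiment 2, while the other 3 arrays lay within 0.07 of each other. Its log2 fold change was -0.15 (95% interval -0.28 to -0.02, adjusted p = 0.50 from limma with the block; adjusted p = 1 without it), and -0.05 without wildtype replicate 2. Tbx18 had log2 values of 9.53 and 9.50 on the wildtype and of 9.46 and 9.35 on the transgenic arrays. The groups did not overlap, with a log2 fold change of -0.11 (95% interval -0.24 to 0.01, adjusted p = 0.686 from limma with the block), which became -0.06 without SHOX transgenic replicate 2.

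The genotype differences were also read within each of the 2 experiments. In experiment 1 no factor differed by more than 0.2 between the genotypes, beside 3.92% of all probe sets (1.93% as higher), and the largest difference was that of Pax1, at -0.08. In experiment 2, 5 of 9 did, beside 4.6% of all probe sets, 4 of them higher (2.71% of all) and 1 lower (1.89% of all). Meis2 was higher in the transgenic array by 0.33, Emx2 by 0.22, Meis1 by 0.22 and Meis3 by 0.21, and Tbx15 differed by -0.24. These differences rest on 1 array per genotype, and whether the experiments differ in them was not tested. The sign was opposite in the 2 experiments for 5 of 9 factors, the MEIS and Iroquois genes, as it was for 47% of all probe sets. Of the 5 factors past 0.2, 4 had their highest or lowest value on the wildtype array, and Meis3 had its highest on the transgenic array.

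**Figure D2:**
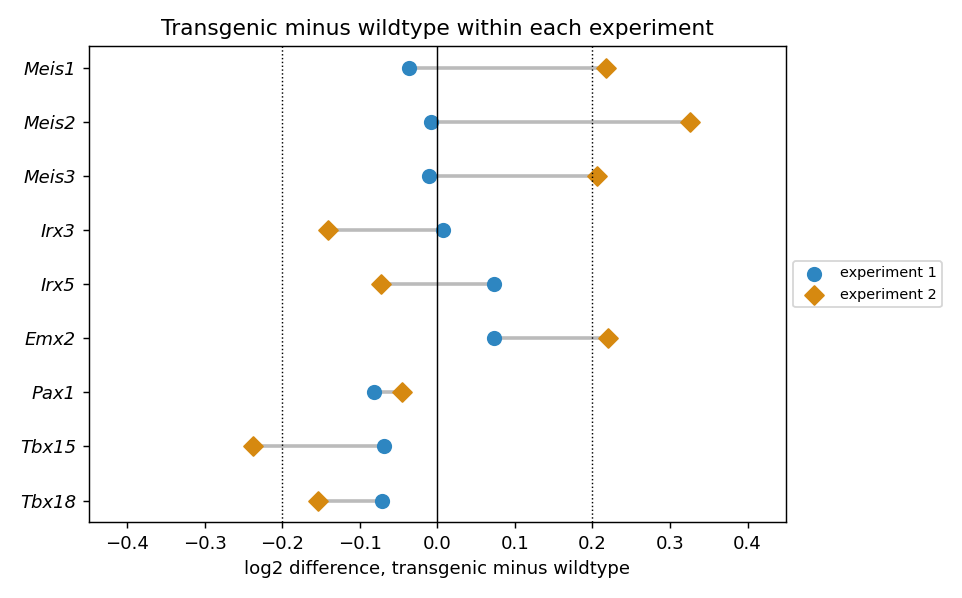
Log2 difference between the transgenic and the wildtype array (horizontal axis) for each factor (vertical axis), with circles for experiment 1, diamonds for experiment 2 and dotted lines at a difference of 0.2 in either direction. All circles lie between the dotted lines, and the diamonds of Meis1, Meis2, Meis3, Emx2 and Tbx15 lie outside them.

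Likeness between factors was measured as the Euclidean distance between log2 values centred on each gene's mean over the 4 arrays. The closest of all pairs was Meis1 with Meis2, at a distance of 0.09, followed by Irx3 with Tbx15, also at 0.09. The farthest was Meis2 with Tbx15, at 0.53, and the next Meis2 with Irx3, at 0.50. Among all named probe sets the 5 closest to Meis2 were Nrip1, a nuclear receptor corepressor, Sparc, a matricellular glycoprotein, Isg20l2, which encodes an exonuclease, Foxd3, a transcription factor of neural crest, and Marcks, a substrate of protein kinase C. Their distances ran from 0.03 to 0.06, and Meis1 itself ranked 25 among all probe sets by its distance to Meis2. For Sparc the log2 values were 11.38 and 11.35 in experiment 1 and 10.93 and 11.28 in experiment 2, wildtype first. Distances over 4 arrays describe only these arrays.

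Genes of the retinoic acid pathway, 12 of 14 listed, were measured beside the MEIS genes. With the experiment as a block, 2 were higher and 1 was lower at the study's thresholds, and none passed without the block or at an adjusted p under 0.05. Over all probe sets 1.23% were higher and 0.321% lower with the block. Rarb, a receptor gene that retinoic acid itself induces, read 8.80 and 8.06 on the wildtype arrays of experiments 1 and 2 (log2), and 8.95 and 8.48 on the transgenic arrays. Its log2 fold change was 0.29, with an adjusted p of 0.0985 in limma with the block. Aldh1a2, which makes retinoic acid, had log2 differences of -0.03 in experiment 1 and 0.49 in experiment 2, and a log2 fold change of 0.23 over both, with an adjusted p of 0.447 in limma with the block. Cyp26b1, which breaks retinoic acid down in the distal limb, differed by -0.23 and -0.18, which gave a mean of -0.21 and an adjusted p of 0.22 in limma with the block. The wildtype array of experiment 2 was the lowest of the 4 for Rarb and Aldh1a2, as for Meis1, Meis2 and Emx2. In the same list it was also lowest for Aldh1a3, Crabp1, Crabp2, Dhrs3 and Rdh10, and highest for Cyp26b1, Rarg and Stra6. Some of these differed between the experiments by about as much in both genotypes, unlike Meis1 and Meis2. From experiment 1 to 2 the log2 differences in wildtype and transgenic limbs were -0.73 and -0.72 for Crabp1. They were -0.46 and -0.42 for Crabp2, and 0.63 and 0.61 for Rarg. The share of all probe sets that were lowest or highest on this array was not counted.

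Some markers of other cells were also low on that array. Of 5 mesothelial genes, all measured, none lay above the median probe set on every array, and their summed log2 values were 36.1 and 34.5 on the wildtype and 36.5 and 36.5 on the transgenic arrays. Wt1, a transcription factor of mesothelium and gonad, differed by -0.02 in experiment 1 and 0.79 in experiment 2, and Upk3b by -0.02 and 0.71. In both genes the wildtype array of experiment 2 was the low one. At the study's thresholds, applied to the joint fit, 3 of the 5 were higher with the block, beside 1.23% of all probe sets, and none without it. Wt1 and Upk3b, with no rise in experiment 1, are among them. Of 7 genes of the sclerotome and axial mesoderm, 1 was higher with the block, the forkhead gene Foxc2. It was not low on the wildtype array of experiment 2: its log2 values were 8.001 and 7.997 on the wildtype arrays, 8.05 on the transgenic array of experiment 1 and 8.56 on that of experiment 2, which stood apart as it did for Meis3. Pax9, the relative of Pax1 in sclerotome, differed by -0.03 and -0.04. Uncx, which lay below the median probe set on every array, and Meox1 were lowest on the wildtype array of experiment 2. Uncx differed by -0.14 and 0.25, and Meox1 by -0.04 and 0.15. Pax9 and Tbx6 were highest on that array. The part of such cells in the values of the MEIS genes and Emx2 was not tested.

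**Figure D3:**
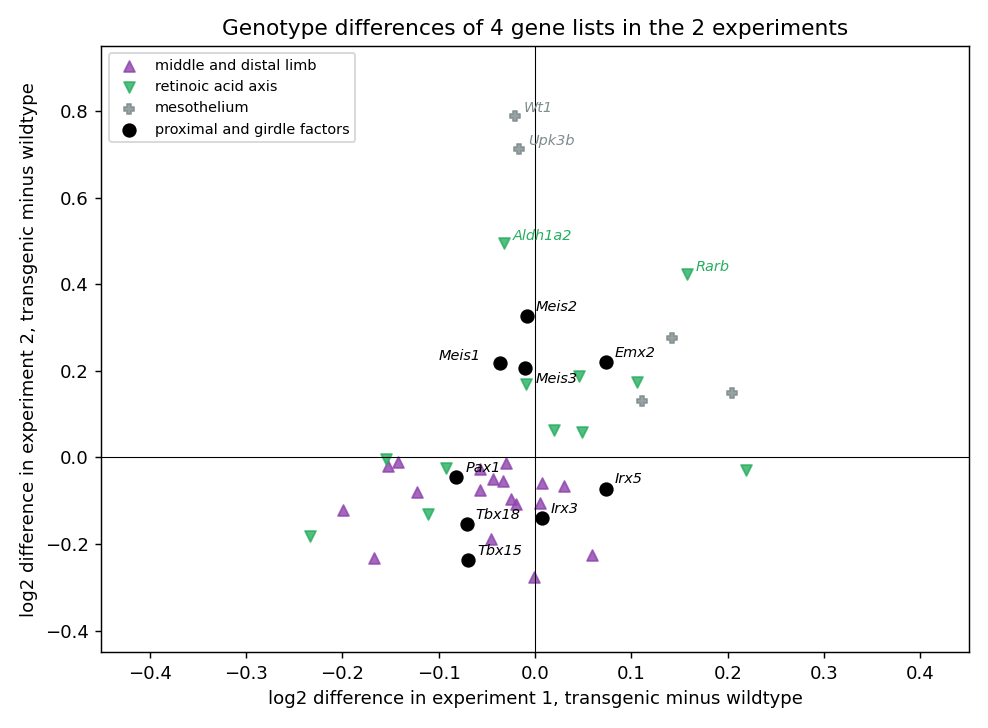
Log2 difference between transgenic and wildtype arrays in experiment 1 (horizontal axis) and experiment 2 (vertical axis) for the 9 factors (black circles) and for listed genes of the middle and distal limb (triangles), the retinoic acid axis (inverted triangles) and mesothelium (crosses). Meis1, Meis2, Meis3, Emx2, Aldh1a2, Rarb, Lrrn4, Upk3b and Wt1 lie above 0.2 on the vertical axis, and the middle and distal genes have a median of -0.08 there.

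Genes of the middle and distal limb, where MEIS genes are not made, gave a median log2 difference between genotypes of -0.06 over 18 measured of 19 listed. One was lower with the block, Sp8, a zinc-finger factor of the apical ridge, at a log2 fold change of -0.20, with an adjusted p of 0.245 in limma with the block. Over all probe sets 0.321% were lower with the block. In experiment 2, 3 of these 18 were below -0.2, namely Fgf8 at -0.28, Sp8 at -0.23 and Sall1 at -0.23, and none was above 0.2. Of all probe sets 1.89% were below -0.2 there and 2.71% above 0.2. Of 11 paralogs of the factors none passed in either fit, and the largest difference was that of Tbx22 (-0.14). Irx1 and Irx2, which lie in the other Iroquois cluster, differed by 0.12 and 0.07. Of the partners of MEIS proteins 5 of 6 were measured and none passed, with log2 fold changes from -0.03 for Pknox2 to 0.04 for Pbx3. Of 11 measured of 12 listed girdle or proximal factors none passed, and Hoxc6 (-0.18), Hand2 (-0.16), Hoxa5 (-0.16) and Hoxb6 (0.11) differed the most.

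The second comparison set the 2 experiments against each other, which gives the scale of the spread that the genotype comparison contains. Experiment 2 was compared with experiment 1 in limma with genotype kept in the model. At the same thresholds 1 of 9 factors passed, Meis2, beside 30.2% of all probe sets (15.4% as higher and 14.8% as lower in experiment 2), and at an adjusted p under 0.05 3 did, beside 39.2%. Meis2 was lower in experiment 2, with a log2 difference of -0.22 (standard error 0.07, adjusted p = 0.0169 from limma). Irx5 had a difference of -0.20 (adjusted p = 0.0138 from limma) and Meis1 one of -0.19 (adjusted p = 0.0277 from limma), both just under the fold threshold. For Irx5 both genotypes were lower in experiment 2, by 0.13 in wildtype and 0.27 in transgenic limbs. For Meis1 and Meis2 most of the difference was in wildtype limbs, -0.32 and -0.39, against -0.06 and -0.06 in transgenic limbs. The arrays of the 2 experiments did not overlap for 6 of 9 factors, beside 66.4% of all probe sets, a share close to that background. Experiment 2 was below for Meis1, Meis2 and Irx5 (31.9% of all) and above for Meis3, Irx3 and Pax1 (34.5% of all).

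**Figure D4:**
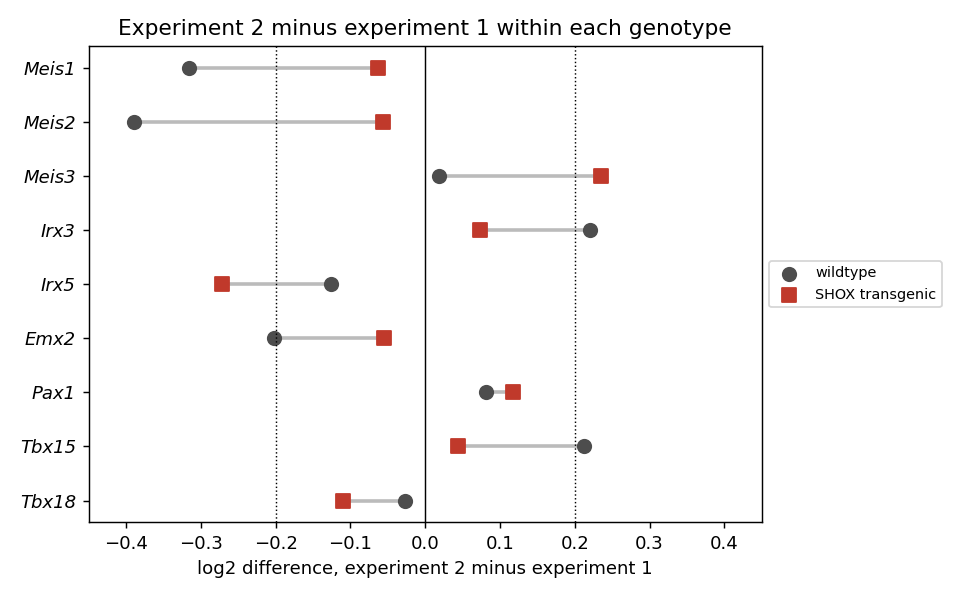
Log2 difference between experiment 2 and experiment 1 (horizontal axis) for each factor (vertical axis), with circles for the wildtype and squares for the transgenic arrays and dotted lines at 0.2 in either direction. Meis1, Meis2 and Emx2 lie left of the dotted line at -0.2 in wildtype limbs only, Irx5 in transgenic limbs only.

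Genes of the other lists were set beside these factors for the same contrast, without a test between lists. Of the 18 middle and distal genes 12 were higher and none was lower in experiment 2 at the same thresholds. Over all probe sets 15.4% were higher and 14.8% were lower, which also applies to the lists below. The median log2 difference of the middle and distal genes was 0.28, beside -0.07 for the 9 factors and 0.01 over all probe sets. Hoxd11, a homeobox gene of the forearm and shank, was higher by 0.88 and Hoxa11 by 0.71. Of the 11 measured girdle or proximal factors 5 were higher and 2 lower, with a median of 0.14. Among these Hand2, a factor of the posterior bud that is expressed early, was higher by 0.94. Prrx2, a factor of limb mesenchyme in the same list, was higher by 0.57. Of the 10 limb mesenchyme genes, some of them also in these lists, 6 were higher and none was lower, with a median of 0.43. In the retinoic acid list 3 were higher and 4 lower, among them Rarg (0.62) and Cyp26b1 (0.61) against Crabp1 (-0.73) and Rarb (-0.61). Of the paralogs Irx1 (-0.35), Irx2 (-0.37), Irx6 (-0.21) and Tbx3 (-0.29) were lower, and Tbx1 (0.37), Tbx2 (0.38) and Tbx22 (0.25) were higher. The median of the 11 paralogs was 0.05.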

How the data were processed

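The data are log2 values from 4 Affymetrix arrays, deposited by the authors as 1 table. The authors log transformed perfect-match probe values, quantile normalized them and fitted log-linear mixed models, with probes grouped by Entrez gene; how probes were combined into the deposited log2 value of a gene, and any genome build, were not given in the sources used here. The log base was read from the range of the values and the study's log2 threshold. Here 64 control probe sets were left out and 16492 were tested without a filter; 15270 have 1 gene symbol in the platform annotation, none has several and 1222 are unnamed here.

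Genotypes, and experiments with genotype kept in the model, were compared with limma 3.58.1 in R 4.3.3 (lmFit and eBayes) with Benjamini-Hochberg adjustment over all probe sets; intervals are at the 95% level. A probe set was called where the log2 fold change exceeded 0.2 in size and p before adjustment was under 0.05. These are the study's cut-offs, but the study required them in both experiments and took p from its mixed models. Here they were applied to a joint fit in limma. The block is the experiment, inferred from the suffix shared by the array titles and the submitters' account of 2 hybridization experiments with littermates; deviations of paired arrays had a correlation of 0.857 across probe sets. It leaves 1 residual degree of freedom beside 16.4 that limma adds from all genes, and 2 and 2.4 without it, so the errors with the block come largely from the spread pooled over genes. The script was tested on simulated data. The arrays of a genotype are labelled as biological replicates; whether their pools came from separate litters is not stated in those sources. The p-values therefore measure only the spread between these arrays, whose number limits the precision. The members and lists were chosen with earlier results of these data known. Named are all members and, of each list, those past the thresholds (up to 6, by size) and up to 4 with the largest genotype difference, paralogs and partners beside their member, Xist, and the 5 probe sets closest to the most variable member. Genes of the retinoic acid list are also named by their lowest or highest array. Promoter sequences are from RefSeq, matched by gene ID. Alternatives were the block, centring, repeated quantile normalization, filters on dim probe sets (below the 25th or 50th percentile), an intensity trend, an analysis of variance without moderation, fold thresholds of 0.1 and 0.3, each replicate left out and, added after seeing the data, the block with a threshold of 0.1.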

Additional observations from a re-analysis of the deposited data

How the results depend on the processing

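No factor passed the study's thresholds for genotype under any of 13 alternatives that change 1 choice each: fold thresholds of 0.1 and 0.3 without the block, each replicate left out, and the replicate block at 0.2, with which the count was also 0, among them. Neither fold threshold could have raised this count, since no factor had an unadjusted p under 0.05 in limma without the block. With the replicate block and a fold threshold of 0.1 together, chosen after seeing the data, 3 passed. Meis3 and Pax1 lie below the 50th percentile and were not tested at that filter. Beside this count of 0 from limma, 0 of 9 had an unadjusted p under 0.05 without the block and 3 with it. Over the 57 listed genes measured around the factors the count was 0 without and 4 with the replicate block, and over all probe sets 31 and 256. Some directions changed between the fits. With 1 array left out and no block, part of the difference between experiments enters the genotype difference: Meis1 ran from -0.0675 to 0.2487, Meis2 from -0.0365 to 0.3533, Meis3 from -0.0203 to 0.2149, Irx3 from -0.1772 to 0.0437 and Irx5 from -0.1348 to 0.1361, while Emx2 (0.0459 to 0.2475), Pax1 (-0.1222 to -0.0049), Tbx15 (-0.2592 to -0.0474) and Tbx18 (-0.1673 to -0.0578) kept their direction. Irx5 also turned to -0.0113 with centred arrays and to -0.0112 with quantile normalization repeated. For the experiments, the count of 1 of 9 became 3 with centred arrays, 5 at a fold threshold of 0.1 and 0 at 0.3; with 1 array left out no test is left, and all 9 kept their direction. Signal over background is not known, since scanner files were not used here.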

Other observations

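All 5 neuronal genes listed were higher on the transgenic array of experiment 1 by more than 0.2, with a median log2 difference of 0.39, against -0.03 in experiment 2. Over all probe sets 1.93% were higher by as much in experiment 1. All 5 were lower in experiment 2 than in experiment 1 at the study's thresholds, beside 14.8% of all probe sets. With the block Isl1 (log2 fold change 0.36, adjusted p = 0.0083 from limma) and Nefm (0.22, adjusted p = 0.349) were higher in transgenic limbs. Isl1 differed by 0.35 in experiment 1 and by 0.37 in experiment 2. In experiment 2 the others did not rise by more than 0.2, with Nefl at -0.03, Nefm at 0.04 and Tubb3 at -0.16. The study lists Isl1 as a regulator of hindlimb initiation and tested it as a candidate by qRT-PCR. Stmn2, which encodes a growth-cone protein, differed between the genotypes by 0.40 in experiment 1 and -0.27 in experiment 2. The 5 cartilage genes had medians of 0.19 and 0.35. With the block 3 of them, Acan, Matn1 and Col9a3, were higher in transgenic limbs, beside 1.23% of all probe sets, and Col9a3 also without it. Col2a1 and Sox9 passed in neither fit, with log2 fold changes of 0.09 and -0.01, and both were lower on the transgenic array in experiment 1 (-0.02 and -0.11). All 5 epidermal genes were lower in experiment 2 at these thresholds, again beside 14.8% of all probe sets. Their median was -0.45 against experiment 1 and -0.02 between the genotypes. The 4 measured genes that fall with stage had a median of 0.09 between the experiments, and they did not go one way. Igf2bp1 was higher in experiment 2 by 0.60 (adjusted p = 5.8e-07 from limma), the only one of them past the thresholds, beside Lin28a at 0.15, Igf2bp3 at 0.02 and Hmga2 at -0.12.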
